A study of Mus musculus with 4 samples.

Results

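Tgm2 and 6 genes of retinoic acid signalling were examined in Langerhans cells, the dendritic cells of the epidermis, from mice that lack the aryl hydrocarbon receptor (AhR) and from wild-type C57BL/6 mice. The 7 genes were Tgm2, Aldh1a2, Rara, Rarg, Rxra, Rxrb and Crabp2, out of 12393 genes with a probe set of their own. Every probe set that the platform annotation gives to 1 of these genes alone was taken, which made 14 of 22626. Tgm2 was selected on its own log2 signal, which was higher in AhR-deficient cells, so its difference is given as a description and was not tested. The other 6 genes were picked for their roles.

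The AhR-deficient mice lack exon 2 of Ahr, and neither group of mice was treated. Ear epidermis was cultured for 16 hours, and living MHC class II-positive cells were then sorted to a purity above 95%. The labels describe this culture both as sheets and as a suspension of single cells. There were 2 arrays per genotype, called biological replicates in the labels, which give no age and no number of mice per array. The labels do not say that the deletion was limited to a cell type, and give no strain background for the deficient mice. Spread between arrays of a genotype may therefore be partly technical. With 2 arrays against 2, an exact permutation test of a single value cannot go below p = 0.333 (two-sided). The Langerhans cell lectin Cd207 had a log2 signal of 11.21 and 11.71 on the AhR-deficient arrays and 11.00 and 12.06 on the wild-type arrays, so the defining marker was present on each array. The AhR target gene Ahrr, for the repressor of AhR, was at 5.32 and 5.09 against 8.26 and 8.38. Ahr itself was at 8.55 and 8.60 against 7.61 and 8.23, and its probe sets are not placed in exon 2 by the annotation, so they check nothing about the deletion.

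Retinoic acid is made from vitamin A. Retinol is oxidised to retinal by alcohol and retinol dehydrogenases, and retinal to retinoic acid by retinaldehyde dehydrogenases such as Aldh1a2, the form that gut dendritic cells are known for. Retinoic acid binds nuclear receptors of the RAR family, which sit on DNA as pairs with a retinoid X receptor (RXR). Crabp2 carries retinoic acid to RAR, Fabp5 can carry it to another RXR partner, and Cyp26 enzymes break it down. Tgm2, tissue transglutaminase, cross-links proteins in the presence of calcium, binds GTP, and has long been known as a gene that retinoic acid induces. Epidermis is itself a retinoid-responsive tissue, in which keratinocytes use Rarg and Rxra.

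The sequences below show what a retinoic acid response element looks like at the start of a pair of classical responsive genes, whose signals are given further on beside that of Tgm2. RAR and RXR bind a direct repeat of the unit AGGTCA. The search also took AGTTCA as a unit. It took GGGTCA likewise, and GGTTCA too. In the arrangement named DR5 the units are 5 bases apart. Windows of 300 bases around gene starts (250 before, 50 after; RefSeq, GRCm38.p6) were searched for DR5 on both strands. It was present in 32 of 32851 windows, or 0.0974%. Among the listed retinoid genes, Rarb and Cyp26a1 had it. The 120 bases before each start follow, 5′ to 3′ on the gene's strand, with the repeated units in capitals. The Rarb stretch is chr14:16575477-16575596 on the minus strand, and the Cyp26a1 stretch is chr19:37697688-37697807 on the plus strand.
Rarb: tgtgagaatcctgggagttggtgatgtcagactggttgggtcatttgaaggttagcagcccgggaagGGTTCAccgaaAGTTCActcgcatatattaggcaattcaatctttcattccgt
Cyp26a1: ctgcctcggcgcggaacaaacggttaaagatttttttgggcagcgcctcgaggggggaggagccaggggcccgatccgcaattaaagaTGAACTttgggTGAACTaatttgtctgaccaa
The Rarb match lay 53 to 37 bases before the start and read along the gene. The Cyp26a1 match lay 32 to 16 bases before the start and read on the opposite strand. Of the 7 genes, 5 had windows in the table, 11 in all, and DR5 was found in 0 of these. The AhR core motif GCGTG, searched on both strands, was in 6 of the 11 windows and in 32.4% of all windows. The longer AhR motif TNGCGTG, each match of which also holds GCGTG, was in 2 of the 11 windows, both of Rara, and in 5.07% of all windows. A match is a description of the letters and does not show binding. Tgm2 and Crabp2 had no entry in this table.

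Tgm2 signal was higher in AhR-deficient cells at 4 of its 6 probe sets and nearly equal at the other 2. These values chose the gene and are described without a test. At 1437277_x_at, the probe set with the highest mean, the log2 signal was 7.80 and 7.78 on the AhR-deficient arrays and 6.33 and 6.41 on the wild-type arrays. Both AhR-deficient arrays thus lay well above both wild-type arrays, by 1.37 at the closest, and arrays of a genotype differed by 0.03 and 0.08. The log2 difference was 1.42 (SE 0.08, n = 2 per genotype), or 2.68-fold. With the brightest probe set standing for each gene, it was the 14th highest difference among all genes, as 13 genes had a higher one. Tgm2 was chosen for being higher, and its other probe sets, most with smaller differences, were not ranked.

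At 1455900_x_at Tgm2 was at 5.84 and 6.10 in AhR-deficient cells against 4.57 and 4.77, a difference of 1.30 (SE 0.13). At 1433428_x_at it was at 7.53 and 7.75 against 6.11 and 6.59, a difference of 1.29 (SE 0.19). At 1417500_a_at it was at 6.36 and 6.37 against 5.85 and 5.93, a smaller difference of 0.48 (SE 0.08). The arrays of the genotypes did not overlap at any of these probe sets.

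At the remaining probe sets Tgm2 differed little. At 1426004_a_at the signal was 5.98 and 5.78 on the AhR-deficient arrays and 5.98 and 5.68 on the wild-type arrays, overlapping, with a difference of 0.05 (SE 0.14). At 1438942_x_at it was 4.78 and 4.80 against 4.77 and 4.71, a difference of 0.05 (SE 0.08). This last probe set had a low signal, near the 30th percentile of all probe sets (29.8), and its groups stood only 0.005 apart.

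The size of the Tgm2 difference therefore depended on the probe set. In Affymetrix naming, a suffix of _a_at marks a set whose probes match several transcripts of a single gene, and _x_at marks a set with probes that can also match other sequences. The 3 differences above 1 all came from _x_at sets. With _x_at and _s_at sets left out, the brighter remaining set, 1417500_a_at, differed by 0.48, and the other, 1426004_a_at, by 0.05. The mean over all 6 probe sets differed by 0.76 (SE 0.07). The position of each set along the transcript is not given by the annotation. For Actb control probe sets, the log2 signal at the 3' end minus that at the 5' end, a sign of RNA quality, was 2.34 and 2.61 on the AhR-deficient arrays and 3.16 and 2.65 on the wild-type arrays, which did not overlap. The Gapdh control sets gave 2.24 and 2.19 against 2.60 and 1.97, with overlap between genotypes. The part of RNA quality in the Tgm2 values was not tested.

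**Figure D1:**
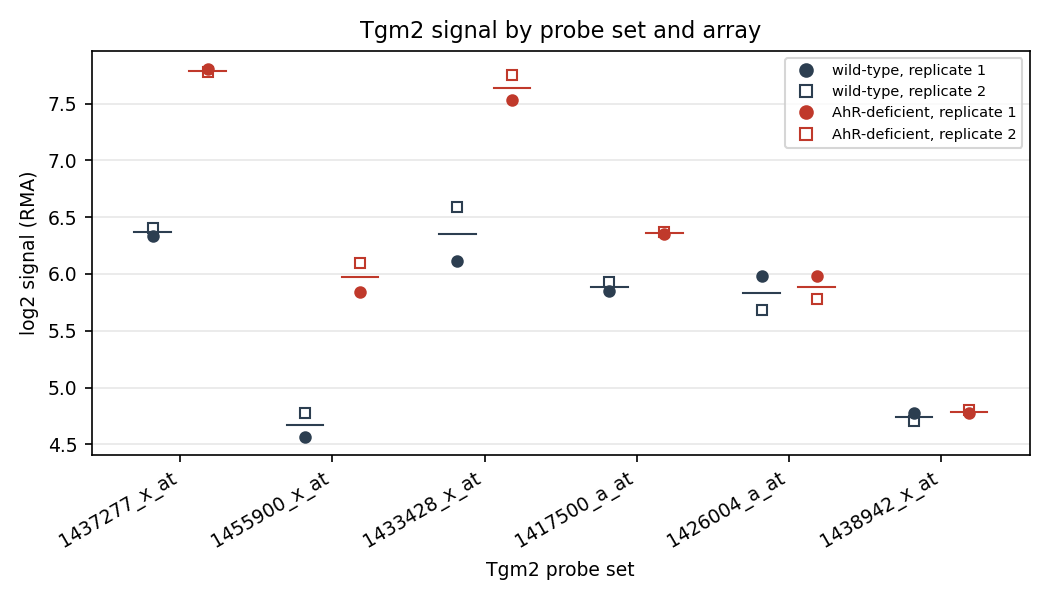
Log2 signal (y axis) of the 6 Tgm2 probe sets (x axis, ordered by difference) on each of 4 arrays; dark points are wild-type, red points AhR-deficient, filled circles replicate 1, open squares replicate 2, and short lines the means. The genotypes are separated by more than 0.9 at the 3 probe sets on the left (0.94 at 1433428_x_at), less at 1417500_a_at, and hardly or not at all at the 2 on the right.

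The other 6 genes of the pathway showed no difference past the test. Of their 8 probe sets, 0 were called in limma at an adjusted p under 0.05, and 0 had an unadjusted p under 0.05. Across all probe sets 0.0177% were called, 4 lower and 0 higher, and 6% had an unadjusted p under 0.05. The 8 differences ran from -0.06 to 0.17, with adjusted p in limma from 0.870 to 0.994. Arrays of the genotypes did not overlap at 3 of the 8, 2 higher and 1 lower, which is 37.5% of the 8. Of all probe sets 35.2% did not overlap, 19.0% in the higher and 16.2% in the lower direction, so the members' share is near that of all probe sets. The 95% intervals of the 8 differences reached from -0.42 to 0.50, so a change of up to 1.41-fold lay within the widest of them.

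Retinoic acid synthesis was represented by Aldh1a2. Its log2 signal was 4.63 and 4.78 on the AhR-deficient arrays and 4.87 and 4.45 on the wild-type arrays. The wild-type values enclosed both AhR-deficient values, and the difference was 0.04 (SE 0.17; 95% interval -0.42 to 0.50). The signal was near the 28th percentile of all probe sets (28.0), so it was also low in both genotypes.

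The carrier Crabp2 was at 4.82 and 4.58 on the AhR-deficient arrays and 4.49 and 4.56 on the wild-type arrays. The groups stood 0.02 apart, less than the AhR-deficient arrays differed from each other (0.24). The difference of 0.17 (SE 0.11) did not pass (limma, adjusted p = 0.896). This probe set also had a low signal (percentile 26.3).

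The RAR genes were close to equal between genotypes. Rara, which encodes the RAR found in most tissues, was at 5.22 and 5.08 on the AhR-deficient arrays and 5.20 and 5.23 on the wild-type arrays, a difference of -0.06 (SE 0.09; 95% interval -0.30 to 0.17). Rarg, the main RAR of epidermis, was at 6.22 and 6.27 against 6.28 and 6.18 at its brighter probe set, a difference of 0.01 (SE 0.08). At its other probe set Rarg was at 5.65 and 5.74 against 5.55 and 5.53, without overlap, a difference of 0.16 (SE 0.08; limma, adjusted p = 0.870). The 2 Rarg probe sets thus gave different sizes, and neither passed.

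The RXR genes encode the shared partners of RAR and of several other nuclear receptors. Rxra was at 7.09 and 7.19 on the AhR-deficient arrays and 7.13 and 7.02 on the wild-type arrays, a difference of 0.07 (SE 0.09). Its other probe set was at 5.37 and 5.33 against 5.39 and 5.40, a difference of -0.05 (SE 0.07), so the 2 probe sets had opposite signs. Rxrb was at 7.79 and 7.63 against 7.61 and 7.64, a difference of 0.09 (SE 0.09; 95% interval -0.16 to 0.34). Over the 6 receptor probe sets the intervals left room for a change of at most 1.30-fold.

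**Figure D2:**
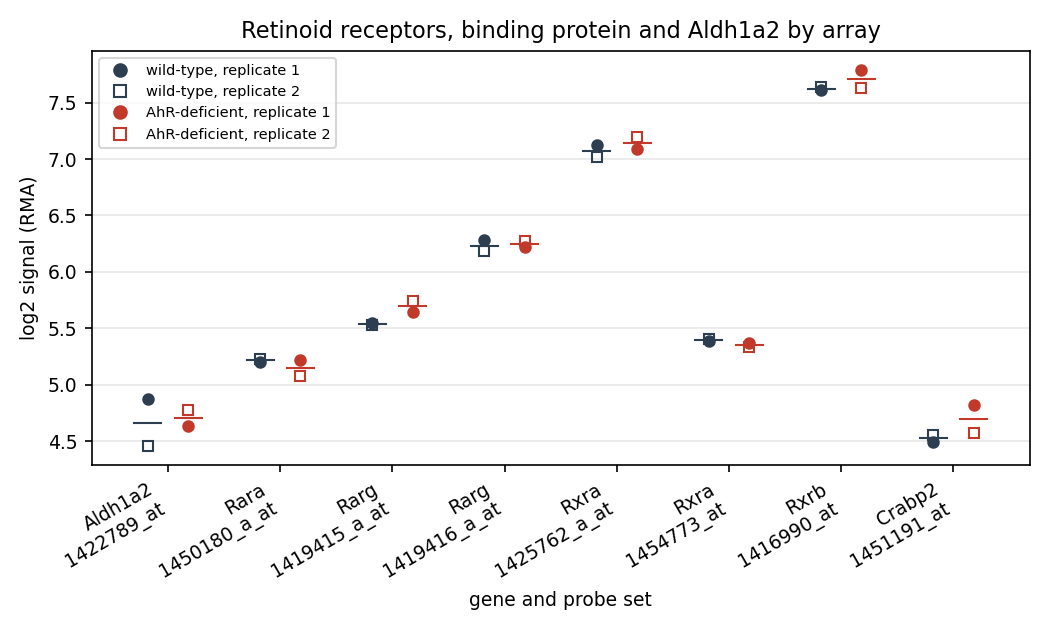
Log2 signal (y axis) of the 8 probe sets of Aldh1a2, Rara, Rarg, Rxra, Rxrb and Crabp2 (x axis) on each of 4 arrays; dark points are wild-type, red points AhR-deficient, filled circles replicate 1, open squares replicate 2, and short lines the means. The means of the genotypes lie within 0.17 of each other at every probe set, and the points overlap at 5 of the 8.

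A wider list of 89 retinoid genes, from vitamin A uptake to receptor partners, was then read for context, of which 72 had a probe set of their own. The brightest probe set, by its mean over the 4 arrays, stood for each gene. In limma 0 of the 72 were called higher and 1 was called lower, against 0.0323% of all genes called. Arrays did not overlap for 10 genes in the higher and 10 in the lower direction, or 27.8%, while 35.4% of all genes had no overlap, 18.8% higher and 16.6% lower. After each array was centred on its median the split was 9 higher and 17 lower, and after a further quantile normalisation 9 and 14. The shares over all genes were not counted after these steps, so no tilt of the list can be read from them. The median difference was 0.02, beside 0.01 over all genes.

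The gene called lower was Nr4a2, an orphan nuclear receptor that can pair with RXR. Its log2 signal lay at 4.13 and 4.14 on the AhR-deficient arrays and 6.72 and 6.78 on the wild-type arrays, so that it fell by 2.62 on the log2 scale (SE 0.08; limma, adjusted p = 0.0403). Its AhR-deficient values lay below the 25th percentile of those arrays (4.55 and 4.56). The call was lost when any 1 of the 4 arrays was left out, with the replicate number as a block, and with 16 added on the linear scale. Its other probe set differed by -0.29.

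Among the carriers of retinoic acid, Fabp5 had the greatest difference. Fabp5 binds fatty acids and can deliver retinoic acid to the receptor Ppard, and it is abundant in epidermis. At the brighter of its probe sets it was at 12.18 and 12.12 on the AhR-deficient arrays and 11.31 and 10.30 on the wild-type arrays. The AhR-deficient arrays were close together and above both wild-type arrays, which differed from each other by about 1. The difference was 1.34 (SE 0.36; limma, adjusted p = 0.710). Its other probe set was at 10.64 and 10.23 against 9.12 and 7.99, a difference of 1.88 (SE 0.42; limma, adjusted p = 0.644). Neither passed the test. Crabp1, the other carrier, differed by 0.04 (SE 0.09).

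For vitamin A uptake and storage, 0 of 12 measured genes passed. Lpl, a lipase that frees fatty acids and retinyl esters from lipoproteins, was at 8.87 and 6.61 on the AhR-deficient arrays and 5.52 and 5.42 on the wild-type arrays. The value of 2.27 (SE 0.78; limma, adjusted p = 0.811) rests largely on AhR-deficient replicate 1, and a dim second probe set differed by 0.35 (SE 0.25). The transport genes Rbp2 and Ttr differed by -0.15 (SE 0.10) and -0.10 (SE 0.08).

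The measured enzymes that make retinoic acid did not pass either, nor did Cyp26a1, the only breakdown enzyme measured. Cyp26b1 and Cyp26c1 had no probe set of their own. Of 19 measured oxidoreductases of retinol and retinal, 0 were called, and 3 were higher and 2 lower without overlap, or 26.3% against 35.4% of all genes. The alcohol dehydrogenases Adh1 and Adh4 differed by 0.30 (SE 0.12) and -0.40 (SE 0.16). Rdh10, a main retinol dehydrogenase, differed by 0.05 (SE 0.11), and Dhrs3, which turns retinal back to retinol, by -0.05 (SE 0.14). The retinaldehyde dehydrogenases Aldh1a1 and Aldh1a3 differed by -0.06 (SE 0.08) and 0.07 (SE 0.12), and the other probe sets of Aldh1a3 by -0.08 and 0.01.

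None of the genes that mark a response to retinoic acid elsewhere passed the test. Rarb, whose DR5 element is printed above, was at 5.30 and 5.29 on the AhR-deficient arrays and 5.39 and 5.29 on the wild-type arrays, a difference of -0.04 (SE 0.08; 95% interval -0.26 to 0.17). Cyp26a1, the breakdown enzyme with the other printed element, was at 6.11 and 6.50 against 6.51 and 6.25, a difference of -0.08 (SE 0.18). Both genes overlapped between genotypes. Of the 16 measured genes in this group, which share 5 with other groups of the list, 0 were called, and 1 was higher and 2 were lower without overlap, or 18.8% against 35.4% of all genes. Rai14, which had the greatest difference in the group and was named after its values were seen, was at 9.24 and 8.10 against 8.42 and 8.16, overlapping, a difference of 0.38 (SE 0.41). The lower pair were Cdx1 (-0.22, SE 0.14) and Arg1 (-0.07, SE 0.07), and the median was 0.02. Of the 16 genes, 7 had a low signal, below the 25th percentile of all probe sets, among them Cdx1 (21.6) and Arg1 (12.2). Tgm2 was kept out of this group.

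Apart from Nr4a2, receptors outside the 7 genes and their cofactors did not pass the test. Rxrg, the remaining RXR, differed by -0.05 (SE 0.09). Of 9 measured corepressors and coactivators 0 were called, and the coactivators Kat2b and Ncoa1 differed by 0.25 (SE 0.13) and -0.16 (SE 0.10). Among other RXR partners, Vdr, the vitamin D receptor, was at 6.17 and 5.81 in AhR-deficient cells against 5.53 and 5.45, a difference of 0.50 (SE 0.14; limma, adjusted p = 0.737). A further Vdr probe set differed by 0.38 (SE 0.08), in the same direction. Nr4a1, an orphan receptor related to Nr4a2 and named here after its values were seen, was at 6.93 and 6.97 against 6.67 and 6.68, higher without overlap, a difference of 0.27 (SE 0.07; limma, adjusted p = 0.712). Pparg, a fatty acid receptor, differed by 0.02 (SE 0.07), and Nr1h3, the oxysterol receptor LXR alpha, by 0.07 (SE 0.09).

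**Figure D3:**
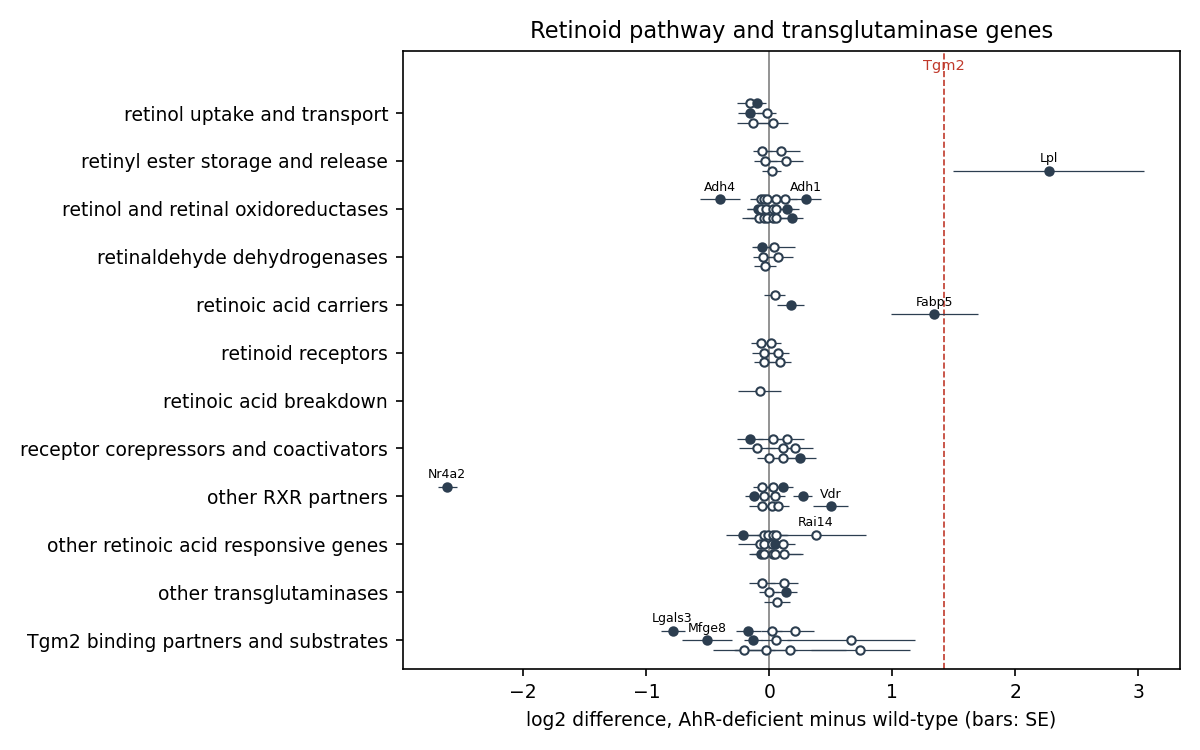
Log2 difference, AhR-deficient minus wild-type (x axis, bars are SE), of each measured gene of the retinoid, transglutaminase and Tgm2 partner lists (y axis, 1 point per gene and list; filled where arrays of the genotypes do not overlap). Most points lie close to 0, and Lpl (2.27), Fabp5 (1.34) and Nr4a2 (-2.62) stand far from it; the dashed line marks the Tgm2 difference of 1.42.

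Other transglutaminases were compared with Tgm2 by their own values. Of the 5 measured, 0 were called and 1 had no overlap, or 20.0% against 35.4% of all genes. Tgm1, the keratinocyte transglutaminase of the cornified envelope, differed by 0.06 (SE 0.11), Tgm3, another epidermal form, by 0.12 (SE 0.12), and F13a1, the coagulation factor XIII subunit found in macrophages, by 0.13 (SE 0.09). Their differences ran from -0.06 to 0.13. Whether they differ from that of Tgm2 was not tested, since Tgm2 was chosen for its difference.

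Of 12 genes for proteins that Tgm2 binds or modifies, 0 were called. Without overlap 0 were higher and 4 were lower, or 33.3% against 35.4% of all genes. By direction, 18.8% of all genes were higher and 16.6% lower without overlap. Lgals3, galectin-3, was at 11.54 and 11.70 on the AhR-deficient arrays and 12.35 and 12.46 on the wild-type arrays, a difference of -0.79 (SE 0.10; limma, adjusted p = 0.374). Mfge8, a bridge between dying cells and phagocytes, was at 8.95 and 9.25 against 9.38 and 9.83, a difference of -0.50 (SE 0.20). The greatest differences in the other direction overlapped between genotypes. Itgb1, an integrin subunit, differed by 0.74 (SE 0.40) and Pdia3, a disulfide isomerase, by 0.66 (SE 0.52), both named after their values were seen. The value of Itgb1 is from its brightest probe set, and its other probe sets differed by -0.05 to 0.43. The median of the list was -0.004.

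The genes with the pattern most like that of Tgm2 were found by the root mean square difference of log2 values over the 4 arrays, each gene centred on its own mean. The nearest was Ifi209, an interferon-inducible gene, with 0.08, followed by Tubb2a (0.11), Smpdl3a (0.13), Apoe (0.16), H2-Aa (0.16), Oasl2 (0.17), Fdps (0.17) and Gdap10 (0.18). All 8 were higher in both AhR-deficient arrays, by 1.09 to 1.31, which follows from choosing them by nearness to Tgm2. A gene with the same value on all arrays would stand 0.71 from Tgm2, and the other 6 genes of the pathway stood at 0.63 (Crabp2) to 0.74 (Rara). With 4 arrays this is a description of likeness in these arrays.

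Markers of other cells that the sort could hold were measured on the same arrays. In bulk samples fewer cells of a type and less RNA per cell cannot be told apart. Summed linear signals of 13 keratinocyte markers were 1225 and 741 on the AhR-deficient arrays and 650 and 698 on the wild-type arrays, with 6 markers higher and 2 lower without overlap. For this and the other marker lists, the shares over all genes are 18.8% higher and 16.6% lower. Those of 9 monocyte and macrophage markers were 1217 and 824 against 575 and 742, with 5 higher and 1 lower. In both lists the sums of both AhR-deficient arrays lay above those of both wild-type arrays, and AhR-deficient replicate 1 was the highest. Tgm2 on AhR-deficient replicates 1 and 2 was at 7.80 and 7.78 at 1437277_x_at. It was at 7.53 and 7.75 at 1433428_x_at, and at 5.84 and 6.10 at 1455900_x_at. Lpl had its highest value on AhR-deficient replicate 1. The part of these cells in the values of Tgm2, Fabp5 and Lpl was not tested.

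Endothelium, a rich source of Tgm2 in many tissues, gave sums of 262 and 268 against 271 and 256 over 8 markers, and fibroblasts 383 and 411 against 415 and 390 over 7. The sums overlapped between genotypes for both lists, with 1 endothelial marker higher and 2 lower, and 2 fibroblast markers higher and 3 lower, without overlap. Endothelial Cdh5 was at 4.55 and 4.67 against 4.76 and 4.90, and Pecam1 at 5.19 and 5.17 against 5.17 and 5.13. T cell markers summed to 378 and 416 against 502 and 463 over 8 genes, with 4 lower and 0 higher without overlap. Mast cell markers summed to 243 and 244 against 277 and 264 over 6 genes (2 higher, 2 lower), and melanocyte markers to 358 and 338 against 322 and 370 over 5 genes (0 and 0). The 14 Langerhans and dendritic cell markers summed to 25472 and 23539 against 17959 and 22394, with 6 higher and 1 lower. The class II genes, on whose protein the cells were sorted, were among the higher ones. The lower one was Csf1r, at 10.54 and 10.14 on the AhR-deficient arrays against 11.07 and 11.70. No marker is at 0 in log2 signals of this kind, so absence cannot be read from them.

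**Figure D4:**
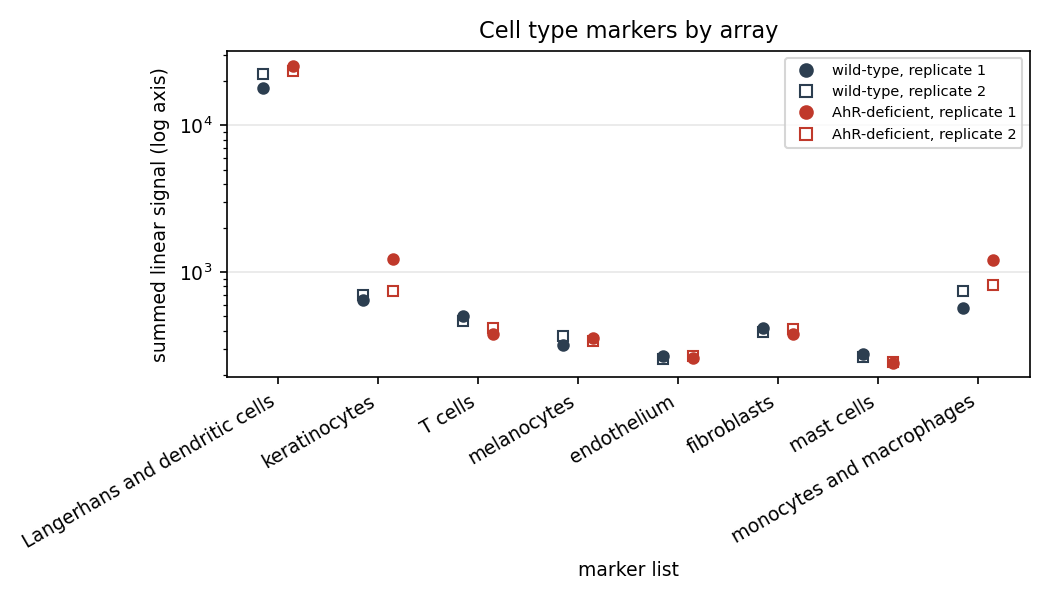
Summed linear signal (y axis, log scale) of the markers of 8 cell types (x axis) on each of 4 arrays; dark points are wild-type, red points AhR-deficient, filled circles replicate 1, open squares replicate 2. Sums of keratinocyte and macrophage markers are highest on AhR-deficient replicate 1 (1225 and 1217), while sums of endothelial and fibroblast markers overlap between genotypes.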

How the data were processed

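The authors deposited log2 expression values per probe set of Affymetrix MOE430A arrays. They were made with affy and RMA (background correction, quantile normalisation, summary over probes), per the submitters' processing notes; tool versions and a genome build are not given in the sources used here. Of 22690 probe sets, 64 controls were left out and 22626 tested. The platform annotation gave 1 symbol to 20380 of them, several to 691 and none to 1555; symbols were checked by Entrez identifier against RefSeq (20351 matched, 0 changed). Promoter windows come from RefSeq, GRCm38.p6, independent of the arrays.

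The comparison of genotypes used limma 3.58.1 (R 4.3.3; lmFit, eBayes, two-sided, residual degrees of freedom 2, prior 2.27) over all tested probe sets, Benjamini-Hochberg adjusted and called at 0.05. SE is limma's moderated standard error and the number of arrays limits the precision. Array medians lay between 5.60 and 5.63. The fit was tested on simulated data with 200 changed probe sets. There it recovered 44.3% of changes of 1 on the log2 scale and 77.1% of changes of 2. In the measured data 4 probe sets were called, so these shares need not hold for them. A gene that was not called is therefore not shown to be equal between genotypes.

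The members and lists were chosen with earlier results of these data known. Named genes were all members with every probe set; per list, those past the test or else the 2 with the greatest difference without overlap; a set of pathway genes; and the 8 genes most like Tgm2. Alternatives were a replicate block, eBayes with trend or robust, dim probe sets left out, further normalisation, an added constant, other probe sets and leaving out each array.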

Additional observations from a re-analysis of the deposited data

How the results depend on the processing

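The Tgm2 difference of 1.42 ranged from 1.38 to 1.46 when 1 array was left out. It was 1.27 with 16 added on the linear scale and 0.76 as the mean over its probe sets. Without _x_at and _s_at sets it was 0.48 at the brighter remaining set, 1417500_a_at, and 0.05 at the other, 1426004_a_at. The direction stayed the same in each of these. Of the 8 probe sets of members other than Tgm2, 0 were called under each alternative except averaged and left-out probe sets, where calls were not counted. Probe sets called lower, 4 in all, numbered 0 with the replicate block, 0 with 16 added and 0 without any 1 array, and 7 with a trend in eBayes, where 1 was called higher; the retinoid gene called lower (1) went to 0 with the block, with 16 added and without any 1 array. The deviations of same-numbered arrays correlated at -0.31. With 2 arrays per genotype, those of the crossed pairing are then 0.31 by construction. This value therefore cannot show whether the numbers pair the arrays. The crossed pairing, added after seeing the data, called 0 probe sets lower and 0 retinoid genes. Retinoid genes without overlap (10 and 10) numbered 21 to 27 higher and 20 to 25 lower without 1 array. Fewer arrays make non-overlap more frequent. They numbered 17 lower with median centring and 6 lower without dim probe sets, which are fewer genes. The shares over all genes were not counted under these settings. Without 1 array the near-zero differences turned for Aldh1a2 (-0.17 to 0.25), Rara (-0.13 to 0.0052), Rarg (-0.036 to 0.065) and Tgm2 at 1426004_a_at (-0.10 to 0.20); the cause was not tested.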
